A study of Homo sapiens with 8 samples.

Results

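Cells induced to make GFP-tagged TIA1 were compared with cells induced to make GFP-tagged HuR, on 2 arrays of each line, which are 4 of the 8 arrays of the series. Both lines were FT293 cells, derived from HEK293, a human embryonic kidney cell line, with the Flp-In T-REx system: Flp recombinase places the construct at a single genomic site, and tetracycline switches it on. RNA was taken 3 days after tetracycline was added, and each array of a line is given as an independent biological replicate. The construct was GFP-TIA1 in one line and GFP-HuR in the other, and another line, with GFP alone, is shown beside them on its own 2 arrays. All of these lines therefore carried tetracycline and a GFP sequence, and whether a line was 1 clone or a pool is not given in the sources used here. The second TIA1 array carries the source name GFP-TIA2 but is GFP-TIA1 by its title and genotype, and the labelling protocol names a rat array whereas the design text and the file headers give a human one.

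TIA1 and HuR are RNA-binding proteins that both recognise uridine-rich and AU-rich sequences. TIA1 promotes the use of exons that are followed by such sequences, and in the cytoplasm it restrains translation and joins stress granules. HuR, the product of ELAVL1, binds AU-rich elements of many short-lived mRNAs and is best known for protecting them from decay. An mRNA level that differs between the lines can therefore reflect a change in either line, and the GFP arrays were used to give a level measured with neither protein added.

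Of 50599 probes on the array, 28713 rose well above background on each array of TIA1 cells, of HuR cells or of both, and they stood for 21221 of 36337 gene names. On 7 of the 8 arrays of the series, between 53.2% and 58.5% of probes were well above background, whereas on the first GFP array (GFP 1) it was 86.0%, with a local background of 83.2 units against 35.7 to 41.5 units on the others. Every value of GFP 1 is therefore given apart from that of GFP 2. The summed signal of 12 markers of HEK293 cells ran from 97.4 to 131 times the 75th percentile of the array over the 6 arrays, and all 12 were well above background except 1 on GFP 2. The summed signal of blood markers was 1.38 and 1.42 on the TIA1 arrays, 0.74 and 0.65 on the HuR arrays, 3.19 on GFP 1 and 0.58 on GFP 2, in the same unit, and that of liver markers was 0.32 and 0.35 against 0.18 and 0.17. Fibroblast markers summed to between 0.51 and 0.59 on all 4 arrays, although LUM among them was lower in TIA1 cells. On these arrays CD14 made up most of the blood sum. Its log2 signals were 0.17 and 0.21 in TIA1 cells and -0.87 and -1.02 in HuR cells. PTPRC, another blood marker, had -4.43 and -4.48 against -3.92 and -4.65. Among liver markers ALB was higher in TIA1 cells and APOA2 lower. The part of these low marker signals in the results was not tested, and in bulk RNA of this kind fewer cells of a type and less RNA per cell cannot be told apart. The array probes for TIA1 had signals of -0.92 and -0.97 in TIA1 cells and -0.02 and 0.07 in HuR cells, on the log2 scale relative to the array's 75th percentile that is used throughout, and the files do not tell whether they lie in the part of the mRNA that the construct carries, so they do not check the labels. The probe for ELAVL1 had 0.35 and 0.43 in HuR cells and -0.26 and 0.48 in TIA1 cells. It had 1.09 on GFP 1 and 0.94 on GFP 2, and the same limit holds for it.

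A gene was called when the line means differed at least 2-fold with an adjusted p under 0.05 in limma, and was represented by its brightest probe. By this rule 1818 genes, 8.57% of those tested, were higher in TIA1 cells than in HuR cells and 991, or 4.67%, were lower. Among the called genes, 431 higher and 137 lower ones differed at least 4-fold, and 116 and 16 at least 8-fold. With genes of which neither array of the low line was well above background taken at a lower bound of their fold, explained beside the genes it concerns, 1805 higher and 816 lower ones reached 2-fold, 333 and 69 reached 4-fold and 60 and 4 reached 8-fold. By adjusted p alone, without the fold threshold, 24.5% of tested genes were higher and 17% lower. The 2 TIA1 arrays differed at least 2-fold at 2.56% of probes and the 2 HuR arrays at 0.777%, against 14.3% between the lines and 20.1% between the 2 GFP arrays. The p-values rest on the spread between the 2 arrays of each line, which limma pools over both lines and moderates with the other tested probes. They measure nothing wider than that spread.

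The calls were not evenly spread over signal. When the genes were cut into 4 equal groups by signal, 15.4% of the dimmest group were called higher and 6.9% lower, and in the brightest group the shares were 2.22% and 2.09%. The median log2 difference, TIA1 minus HuR, fell from 0.19 in the dimmest group through 0.17 and 0.035 to 0.007 in the brightest, and with quantile normalization the same groups lay at -0.06, 0.01, 0.0003 and -0.004. Over all genes the median was 0.09 in the scaling used here, -0.01 after quantile normalization and 0.01 in the authors' own normalized values, and 64.7% of calls were in the higher direction in the first, 53.4% in the second and 58.3% in the last. A list of genes is read below against these shares and this median. The words rose and fell are used for TIA1 cells relative to HuR cells, whichever line the GFP arrays were nearer.

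Genes of cholesterol synthesis were lower in TIA1 cells than in HuR cells more than any other of the 43 gene lists by median. Cells make cholesterol from acetyl-CoA through mevalonate, isoprenoids, squalene and a series of sterols. The genes of this path share regulation by SREBP-2, a membrane-bound transcription factor that SCAP escorts out of the endoplasmic reticulum when sterols run low and that INSIG proteins hold back when sterols are plentiful. SREBP acts on promoters together with NF-Y, a factor that binds the CCAAT box.

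Of 27 list members tested, 8 (29.6%) fell in TIA1 cells relative to HuR cells, against 4.67% of all genes. None rose, and the median log2 difference was -0.74. Without the fold threshold, 19 of the 27 were lower at an adjusted p under 0.05 in limma and none was higher, against the 17% of all genes that were lower by this measure. The promoters of 5 members that fell are shown to let the CCAAT boxes be seen. Each is RefSeq sequence of GRCh38.p14 upstream of the gene's start, read 5′ to 3′ on the gene's strand, with CCAAT or its reverse complement ATTGG in capitals. INSIG1 is at chr7:155297688-155297732 (+), HMGCS1 at chr5:43313488-43313587 (−), IDI1 at chr10:1048949-1049038 (−), MSMO1 at chr4:165327464-165327659 (+) and HSD17B7 at chr1:162790630-162790674 (+).
INSIG1: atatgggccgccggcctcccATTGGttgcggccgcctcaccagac
HMGCS1: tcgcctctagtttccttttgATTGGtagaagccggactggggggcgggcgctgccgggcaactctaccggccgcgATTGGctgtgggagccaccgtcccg
IDI1: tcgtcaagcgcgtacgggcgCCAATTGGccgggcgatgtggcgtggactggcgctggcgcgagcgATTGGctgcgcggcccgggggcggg
MSMO1: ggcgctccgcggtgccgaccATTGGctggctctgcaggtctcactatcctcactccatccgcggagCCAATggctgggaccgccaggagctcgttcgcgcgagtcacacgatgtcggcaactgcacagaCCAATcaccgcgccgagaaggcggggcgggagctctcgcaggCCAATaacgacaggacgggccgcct
HSD17B7: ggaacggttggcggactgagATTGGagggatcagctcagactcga
Within the 250 bases before the start, CCAAT on either strand was found in 19 of the 29 promoters (65.5%) of the 21 tested members that have one in the table, and in 11240 of 35116 promoters of all genes (32%). In IDI1 the forward and reverse matches overlap. A classical sterol element, TCACNCCAC on either strand, was found in 1 of the 29 promoters (3.45%) and in 310 of all promoters (0.883%). That 1 match was in SREBF2, which was not called, and 0 of the 8 promoters of members called lower had the element. CCAAT was in 6 of those 8, and also in promoters of EBP, TM7SF2 and GGPS1, which were not called. A match is a description of the letters and not of binding.

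INSIG1, a sterol-induced brake on SREBP that is itself a target of SREBP, was at 2.42 and 2.48 in TIA1 cells, 3.86 and 3.82 in HuR cells, 2.79 on GFP 1 and 3.11 on GFP 2. Both GFP arrays lay between the 2 lines, and INSIG1 was 2.63-fold lower in TIA1 cells (log2 difference -1.39, SE 0.09, adjusted p = 0.0027 in limma).

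Along the path itself, members of the early, middle and late steps were among those that fell. HMGCS1, which makes HMG-CoA, had signals of 2.15 and 1.79 in TIA1 cells, 3.29 and 3.15 in HuR cells, 2.51 on GFP 1 and 2.78 on GFP 2, a log2 difference of -1.25 (SE 0.16, adjusted p = 0.0081). Its GFP levels were again intermediate. IDI1, which converts the isoprenoid units into one another, fell by 1.24 on the log2 scale (SE 0.12), from 3.44 and 3.54 in HuR cells to 2.35 and 2.16 in TIA1 cells, with GFP 1 at 2.82 and GFP 2 at 3.04. SQLE, the oxygenase that prepares squalene for ring closure, was at 1.58 and 1.35 in TIA1 cells, 2.83 and 2.89 in HuR cells, 1.90 on GFP 1 and 2.06 on GFP 2, a fall of 2.63-fold (adjusted p = 0.0038). Here the GFP arrays sat nearer TIA1 than HuR cells.

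MSMO1 and HSD17B7 act after the ring has closed, on sterol intermediates. MSMO1 fell by 1.09 (SE 0.12) and was dim, at -1.72 and -1.93 in TIA1 cells, -0.78 and -0.68 in HuR cells, -1.08 on GFP 1 and -1.09 on GFP 2. HSD17B7 fell by 1.03 (SE 0.12), with GFP 2 at 0.85, above both HuR arrays at 0.46 and 0.40. HSD17B7 is also in the gene list the study chose on these samples.

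Members that missed the fold threshold had log2 differences of -0.98 for LSS, which closes the ring (0.59 at its other probe), -0.96 for FDFT1, which makes squalene, and -0.74 for both FDPS and SREBF2, the gene of SREBP-2. At the other end EBP (-0.11), CYP51A1 (-0.06), TM7SF2 (0.05), INSIG2 (0.15, and -0.14 at another probe) and GGPS1 (0.19), which makes geranylgeranyl diphosphate, were not called. IDI2 did not pass the filter on dim probes. Taking GFP 2 as the reference, the list's median was -0.63 for TIA1 cells minus GFP 2 and -0.10 for GFP 2 minus HuR cells. With GFP 1 it was -0.57 for GFP 1 minus HuR cells. The count of 8 dropped to 5 without HuR replicate 1 or HuR replicate 2, and HMGCS1 was then no longer called, at -1.18 and -1.32.

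**Figure D1:**
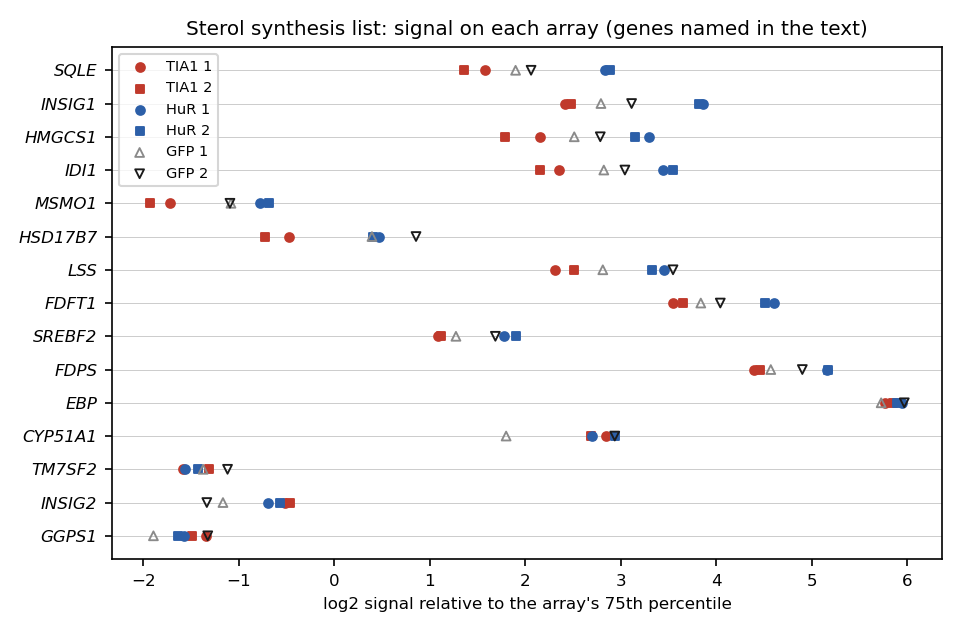
Log2 signal relative to the array's 75th percentile (x axis) of the tested sterol genes named in the text, 1 row a gene, with a point for each TIA1, HuR and GFP array. From SQLE and INSIG1 at -1.39 to HSD17B7 at -1.03 the TIA1 mean lies at least 2-fold below the HuR mean, and the rows from LSS down run to a difference of 0.19 for GGPS1.

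A second group of lower genes belonged to amino acid supply and the ATF4 response. ATF4 is the transcription factor made when translation initiation factor eIF2 is phosphorylated, and it induces amino acid transporters, amino acid synthesis enzymes and tRNA synthetases. Of 35 tested members of an ATF4 target list, 7 (20%) were called lower in TIA1 than in HuR cells, against 4.67% of all genes. None was called higher, and the median log2 difference was -0.29. At 5 of the 7 both GFP arrays were nearer TIA1 cells, at 1 both were nearer HuR cells and 1 was split. The list's median was -0.61 for GFP 1 minus HuR cells and -0.15 for GFP 2 minus HuR cells. Of the 7, PCK2 at -2.36 and SLC7A11 at -1.87 are also in the study's list. SLC6A9, a glycine transporter, was at 1.47 and 1.64 in TIA1 cells, 3.12 and 3.05 in HuR cells, 1.76 on GFP 1 and 1.96 on GFP 2. Both GFP arrays were close to the TIA1 arrays and far below the HuR arrays, and SLC6A9 was 2.88-fold lower in TIA1 than in HuR cells (adjusted p = 0.003 in limma).

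CTH, which makes cysteine from cystathionine, showed the same layout. Its signals were 0.97 and 1.18 in TIA1 cells, 2.28 and 2.28 in HuR cells, 1.15 on GFP 1 and 1.55 on GFP 2, a log2 difference of -1.21 (SE 0.11, adjusted p = 0.0044). SLC7A5, the large neutral amino acid transporter, had 1.57 and 1.59 against 2.66 and 2.58, with the GFP arrays at 1.84 and 2.01 (log2 difference -1.04, SE 0.09). SLC1A5, a glutamine transporter, differed by -1.02, and STC2, a secreted glycoprotein, by -1.32. ATF4 itself differed by -0.05, ASNS, the asparagine synthetase, by -0.03, ATF3 by 0.33 and DDIT3, the stress factor CHOP, by 0.82, and none of these was called. The mitochondrial PCK2, which makes phosphoenolpyruvate, lay apart in its GFP arrays, with -2.66 and -2.58 in TIA1 cells against -0.27 and -0.26 in HuR cells and -0.03 and -0.13 on GFP 1 and GFP 2. Without HuR replicate 1 the count of lower members was 4 and SLC7A5 (-0.999) lost its call, and STC2 lost it without HuR replicate 1 (-1.38) or HuR replicate 2 (-1.25).

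The cytosolic aminoacyl-tRNA synthetases, the enzymes that load tRNAs, had 3 of 20 lower (15%) and none higher, with a median of -0.35. Of all genes 4.67% were called lower. By adjusted p alone 10 of the 20 were lower, a measure by which 17% of all genes were lower. VARS, for valine, had signals of 4.00 and 3.96 in TIA1 cells and 5.16 and 4.98 in HuR cells, with GFP 1 at 4.72 and GFP 2 at 5.19, and differed by -1.09 (SE 0.11). GARS, for glycine, differed by -1.28 with TIA1 arrays at 0.74 and 1.57, HuR arrays at 2.38 and 2.48, GFP 1 at 1.11 and GFP 2 at 0.34. For VARS the GFP arrays were thus on the HuR side and for GARS below or within the TIA1 range. None of the 3 calls, YARS (-1.03) being the last, was left without HuR replicate 1, where the differences were -0.996, -1.32 and -0.93.

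Lists of mitochondrial and peroxisomal catabolism also had lower medians, but they were not the only other lists with falls. The fatty acid and lipid synthesis list, given further below, had 13.8% of its genes lower. Of 42 genes of glutamate, serine and one-carbon metabolism, which feed the folate cycle, 7 fell and 1 rose, with a median of -0.43. Of 27 genes that break down branched-chain amino acids and ketone bodies, 4 fell and 1 rose, with a median of -0.52. Of 52 peroxisome genes 8 fell and 1 rose, with a median of -0.37, and 5 of the called genes are in the study's list. Of 40 genes of fatty acid oxidation 6 fell and 3 rose (-0.30), and of 30 genes of the tricarboxylic acid cycle 2 fell and none rose (-0.33). In the order named, the lower shares were 16.7%, 14.8%, 15.4%, 15% and 6.67%, against 4.67% of all genes.

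In the cycle and its entry, PDK3, a kinase that turns off pyruvate dehydrogenase, had signals of -2.02 and -1.92 in TIA1 cells and -0.45 and -0.42 in HuR cells, with GFP 1 at -0.40 and GFP 2 at -0.31. IDH2, the mitochondrial NADP-dependent isocitrate dehydrogenase, had -1.12 and -0.90 against 0.34 and 0.40, with GFP arrays at 0.27 and 0.59. For both genes the GFP arrays were level with HuR cells, and the falls in TIA1 cells were 2.9-fold (adjusted p = 0.0026) and 2.61-fold (adjusted p = 0.0038).

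The carnitine shuttle, which carries fatty acids into mitochondria, did not move as one. CPT2, of the inner membrane, fell by 1.39 on the log2 scale, with 0.33 and 0.25 in TIA1 cells, 1.74 and 1.61 in HuR cells, 1.16 on GFP 1 and 1.42 on GFP 2. CPT1A and CPT1C, of the outer side, rose by 1.27 and 1.45. Likewise in peroxisomes ABCD3, an importer of fatty acids, rose by 1.52 (0.43 and 0.44 against -1.08 and -1.09, GFP arrays -0.18 and -0.11) while PEX6, needed to recycle the receptor for imported proteins, fell by 1.07 (-0.07 at its other probe), and LONP2, a peroxisomal protease, by 1.17. MMAB, which makes the active form of vitamin B12, fell by 1.24 and MTHFD1L, a mitochondrial folate enzyme, by 1.26, whereas AMT, a part of the glycine cleavage system, rose by 1.19.

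Leaving out an array, or taking other values, changed these counts. In a fit without an array the line with 1 array left is assumed to vary like the other line. Without HuR replicate 1 the lower counts were 4 for the glutamate list, 2 for the branched-chain list and 3 for fatty acid oxidation. Without HuR replicate 2 they were 4, 2 and 2, and the peroxisome count was 5. Without TIA1 replicate 2 that of fatty acid oxidation was 3. Without HuR replicate 2 LONP2 (-0.96), MTHFD1L (-1.23) and AMT (1.17) were no longer called, at differences close to those over all arrays. In the authors' values 3 genes of fatty acid oxidation and 5 of the peroxisome were lower, and with normexp background correction 2 and 5.

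Several large complexes showed no calls. None of 80 cytosolic ribosomal protein genes was called, and their differences ran from -0.23 for RPL7 to 0.86 for RPS21, with a median of 0.26 that turned to -0.02 after quantile normalization. None of 78 subunits of the respiratory chain and ATP synthase was called (median -0.0035, 0.02 in the authors' values), nor any of 45 proteasome subunits (median -0.18) or 24 chaperones of the endoplasmic reticulum (median -0.11). By adjusted p without the fold threshold, where 24.5% of all genes were higher and 17% lower, 16 ribosomal protein genes were higher and 0 lower, and 8 and 6 subunits of the respiratory chain, 2 and 12 of the proteasome and 4 and 5 chaperones passed, higher counts first. Of 58 initiation and elongation factors 4 (6.9%) fell and 1 (1.72%) rose, against 4.67% and 8.57% of all genes. EIF2B3, a subunit of the exchange factor that recharges eIF2, fell by 1.27 on the log2 scale (1.98 and 2.00 against 3.29 and 3.23, GFP arrays 2.76 and 2.86). Its 3 probes ran from -1.44 to -0.58. EIF4A2, an RNA helicase of initiation, differed by -1.35 with TIA1 arrays at 2.76 and 3.41, and lost its call without HuR replicate 1 (-1.37) or HuR replicate 2 (-1.32).

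The largest single differences were at dim genes, and most were higher in TIA1 cells. Among mRNAs outside the study's list whose probes were well above background on all 4 arrays and did not contradict one another, GDAP1L1, a relative of the mitochondrial protein GDAP1, led (probe at chr20:42907725-42907784 of hg19). It had signals of -0.21 and -0.48 in TIA1 cells, -3.56 and -3.74 in HuR cells, -2.79 on GFP 1 and -2.85 on GFP 2. Both GFP arrays stood nearer the HuR arrays, and GDAP1L1 was 9.87-fold higher in TIA1 cells (log2 difference 3.30, SE 0.14, adjusted p = 0.0017 in limma). Its 2 probes gave 3.30 and 3.67, and the authors' normalized values gave 2.51.

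Several of the others are receptors or proteins of the nervous system. GRIK3, a kainate receptor subunit for glutamate, had -2.11 and -1.86 in TIA1 cells, -5.01 and -4.94 in HuR cells, -4.37 on GFP 1 and -4.74 on GFP 2. Its 2 probes differed by 1.64 and 2.99 between the lines. S1PR5, a receptor for sphingosine 1-phosphate, had -2.68 and -2.81 against -5.48 and -5.58, with GFP arrays at -4.57 and -4.71. BAIAP3, which acts in the release of dense-core vesicles, had -2.83 and -2.56 against -5.56 and -5.66, but its GFP arrays were split, at -3.21 and -4.52. For GRIK3 and S1PR5 both GFP arrays were nearer HuR cells, and the folds of the 3 genes were 7.94, 6.89 and 7.51.

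NTN5, of the netrin family of secreted guidance proteins, rose by 3.02 on the log2 scale, with -2.34 and -2.35 in TIA1 cells, -5.09 and -5.64 in HuR cells, -5.07 on GFP 1 and -5.24 on GFP 2. CRIP2, a LIM domain protein, rose by 2.66, with -1.74 and -1.78 against -4.52 and -4.33 and GFP arrays at -3.44 and -3.41. CA7, a cytosolic carbonic anhydrase, rose by 2.62, GJB7, a connexin, by 2.73, TAS2R5, a bitter taste receptor, by 2.87, ENTPD8, an ectonucleotidase, by 2.84, C16orf11 (now PRR35) by 2.64 and FRG2C by 2.73. FRG2C belongs to a family of near-identical copies, which its probes may not tell apart. In the authors' values the differences of these 12 genes ran lower, such as 1.48 for GRIK3 and 1.21 for S1PR5.

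Among the falls of the same kind, SRD5A3, the polyprenol reductase needed to make dolichol for protein glycosylation, was the largest (probe at chr4:56237337-56237396 of hg19). It had signals of -3.56 and -3.76 in TIA1 cells, -1.57 and -1.63 in HuR cells, -1.61 on GFP 1 and -1.76 on GFP 2. The GFP arrays were level with HuR cells, and SRD5A3 was 4.17-fold lower in TIA1 cells (log2 difference -2.06, SE 0.11, adjusted p = 0.0023). C2CD4A fell by 2.03 and TMEM31 by 2.01, and both of their GFP arrays were nearer HuR cells.

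DDIT4L, a relative of the mTORC1 inhibitor DDIT4, fell by 1.82 on the log2 scale and was placed the other way. Its signals were -3.25 and -3.23 in TIA1 cells, -1.45 and -1.40 in HuR cells, -3.30 on GFP 1 and -3.57 on GFP 2, so that the HuR arrays alone were high. C12orf66 (now KICS2), a subunit of the KICSTOR complex that ties mTORC1 to nutrients, fell by 1.93, with -3.21 and -3.56 against -1.43 and -1.47 and GFP arrays at -2.30 and -1.86. RPGRIP1L, of the ciliary transition zone, fell by 1.92.

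TNC, the matrix glycoprotein tenascin C, fell by 1.89, with -3.10 and -3.49 in TIA1 cells, -1.32 and -1.49 in HuR cells, -2.05 on GFP 1 and -2.94 on GFP 2. NLGN1, a postsynaptic adhesion protein, fell by 1.83, with -2.97 and -3.15 against -1.40 and -1.06 and GFP arrays at -1.92 and -2.57. For both genes the GFP arrays lay between the 2 lines. FAM86B1 (-1.99) and CYP2D6 (-1.86) have near copies elsewhere in the genome. HMSD (-1.999) and IRAK2 (-1.81), a kinase of interleukin-1 signalling, had TIA1 arrays far apart, at -4.50 and -3.33 and at -3.57 and -2.62, and their calls were lost without HuR replicate 1 or HuR replicate 2 (HMSD -1.90 and -2.10, IRAK2 -1.91 and -1.72).

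**Figure D2:**
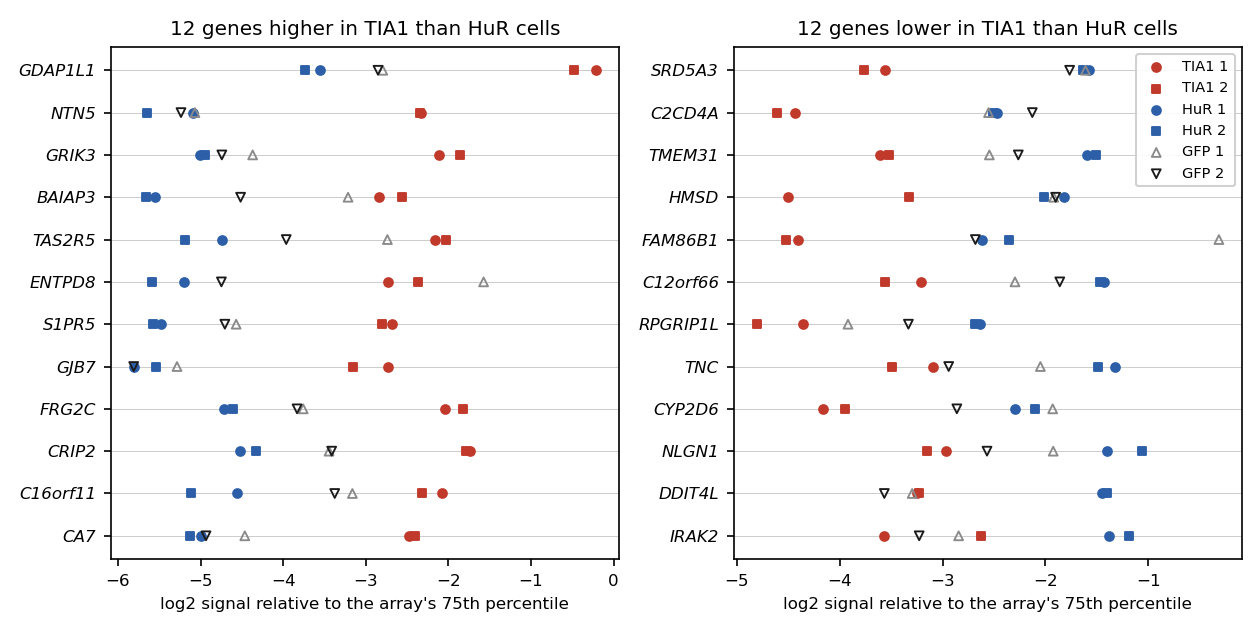
Log2 signal relative to the array's 75th percentile (x axis) of the 12 genes with the largest rise and the 12 with the largest fall in TIA1 cells, chosen as described in the text, with a point for each array. GDAP1L1 heads the rises at 3.30 and SRD5A3 the falls at -2.06, and the GFP arrays sit near either line or between them depending on the gene.

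Where neither array of the low line was well above background, only a bound can be given, made from the mean of the bright line against, per array of the dim line, the higher of the lowest signal that was well above background and the probe's own signal. This was the case for 238 of the genes called higher and 230 of those called lower. INPP5D, the inositol phosphatase SHIP1 of blood cells, was at least 10.8-fold higher in TIA1 cells, with -2.69 and -2.46 there and both HuR arrays not well above background, GFP 1 being at -3.97 and GFP 2 at -4.004. GRM2, a metabotropic glutamate receptor, was at least 9.54-fold higher, BDKRB1, a bradykinin receptor, at least 9.25-fold, and KISS1R, the kisspeptin receptor, at least 8.71-fold. In the other direction ST8SIA4, a polysialyltransferase, was at least 4.33-fold lower in TIA1 cells, GLIPR1 at least 3.29-fold and IL20RA, an interleukin-20 receptor chain, at least 2.76-fold.

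AU-rich mRNAs are the textbook targets of both proteins. Of 60 tested mRNAs with AU-rich elements or of the immediate early class, 9 rose and 3 fell in TIA1 cells, with a median of 0.21. These were 15% and 5%, against 8.57% and 4.67% of all genes. PLAUR, the urokinase receptor, had -0.46 and -0.52 in TIA1 cells, -2.33 and -2.19 in HuR cells, -0.05 on GFP 1 and -2.65 on GFP 2, so that GFP 1 was with TIA1 cells and GFP 2 with HuR cells (log2 difference 1.77, SE 0.10, adjusted p = 0.0024). LIF, an interleukin-6 family cytokine, rose by 1.46, with -0.90 and -1.11 against -2.35 and -2.58 and GFP arrays at -2.36 and -1.62. IL11, of the same cytokine family, was at least 8.25-fold higher, and MYCN, the MYC family transcription factor, at least 2.64-fold.

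The p53 target list had 12 of 41 genes higher (29.3%) and 1 lower (2.44%), against 8.57% and 4.67% of all genes. Its median was 0.54, or 0.38 over its genes brighter than the median gene. The higher count was 9 after quantile normalization and 8 in the authors' values. Of the called genes 5 are in the study's list, which was chosen on these samples. Outside it, PHLDA3, an inhibitor of AKT, had 1.83 and 1.78 in TIA1 cells, 0.49 and 0.48 in HuR cells, 1.13 on GFP 1 and 1.29 on GFP 2, and rose by 1.32 on the log2 scale (SE 0.09, adjusted p = 0.0029). The GFP arrays lay between the lines. DRAM1, a lysosomal autophagy regulator, rose by 1.22, and EDA2R, a receptor of the TNF receptor family, was at least 5.9-fold higher than in HuR cells but below both GFP arrays, at -3.28 and -3.51 against -2.68 and -2.24.

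Insulin-like growth factors and imprinted genes, which overlap in IGF2, were mostly higher among their calls. Of 20 genes of the IGF axis 6 rose and 1 fell, with a median of 0.29, and of 28 imprinted genes 6 rose and none fell, with a median of 0.44. The shares higher were 30% and 21.4%, against 8.57% of all genes, and 5% of the IGF genes were lower, against 4.67%. IGFBP7, a secreted binding protein, had 0.07 and 0.17 in TIA1 cells, -1.37 and -1.26 in HuR cells, -0.20 on GFP 1 and 0.33 on GFP 2. The GFP arrays were thus with TIA1 cells and HuR cells alone were low (log2 difference 1.44, SE 0.10). CDKN1C, an imprinted inhibitor of cyclin-dependent kinases, showed the same, at -0.84 and -0.66 against -2.58 and -2.48 with GFP arrays at -1.10 and -1.17, a difference of 1.78.

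IGF2, the imprinted growth factor, had 0.14 and 0.67 in TIA1 cells, -1.31 and -1.30 in HuR cells, -0.62 on GFP 1 and -0.51 on GFP 2, a difference of 1.71 that lost its call without HuR replicate 1 (1.71) or HuR replicate 2 (1.71), with 2 probes at 1.71 and 2.13. IGFBP3, which binds IGF in serum, was at least 4.14-fold higher, PAPPA, a protease that frees IGF from binding proteins, at least 3.25-fold and MEST at least 5.01-fold. Without TIA1 replicate 2 the number of IGF genes called lower was 3 in place of 1. With all 4 arrays well above background 3 imprinted genes were called higher, and the imprinted median was 0.19 in the authors' values and 0.10 over genes brighter than the median gene.

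Of 61 genes of TGF-beta and BMP signalling 13 (21.3%) rose and 4 (6.56%) fell, against 8.57% and 4.67% of all genes. The list's median was 0.24. The named rises outside the study's list were inhibitors or ligands of the BMP branch. Another BMP family ligand, GDF7, was called lower, at -1.41, with a bound of 1.08-fold. SMAD6, an inhibitory SMAD, had 0.60 and 0.66 in TIA1 cells, -0.82 and -0.83 in HuR cells, and -0.03 and -0.01 on the GFP arrays. CHRD, the secreted BMP antagonist chordin, had -0.29 and -0.03 against -1.60 and -1.59, with -1.28 and -0.96. The differences of SMAD6 and CHRD were 1.45 (SE 0.09) and 1.43 (SE 0.13). GDF6, a BMP family ligand, differed by 1.37 and was not called without HuR replicate 1 (1.09). Without HuR replicate 2 the count of lower members was 2, and in the authors' values 7 members were higher and 1 lower.

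In the matrix and at cell contacts, 7 of 32 collagen genes rose and 3 fell, with a median of 0.33, and 10 of 69 laminins, integrins and matrix glycoproteins rose and 4 fell, with a median of 0.18. Shares higher were 21.9% and 14.5% and shares lower 9.38% and 5.8%, against 8.57% and 4.67% of all genes. COL7A1, of anchoring fibrils, had -0.94 and -0.79 in TIA1 cells, -2.19 and -2.27 in HuR cells, -2.09 on GFP 1 and -2.60 on GFP 2, and rose by 1.37, with TIA1 cells alone high. ITGB4, the integrin of hemidesmosomes, rose by 1.94, with -2.92 and -2.88 against -4.87 and -4.80 and GFP arrays at -3.63 and -4.01. THBS2, a matrix thrombospondin, was at least 2.81-fold higher. COL5A1, a fibrillar collagen, differed by 1.40 at the probe used and by as little as 0.25 at another, and lost its call without HuR replicate 2 (1.25).

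Of 44 cadherins, catenins and junction proteins 6 (13.6%) rose and 2 (4.55%) fell, against 8.57% and 4.67% of all genes. The list's median was 0.12. PVRL3 (now NECTIN3), an adhesion molecule of adherens junctions, rose by 2.49 on the log2 scale, with -1.83 and -1.49 against -4.30 and -3.997, and PVRL4 (now NECTIN4) by 2.60. CLDN3, a claudin of tight junctions, rose by 1.37, with -2.17 and -1.98 in TIA1 cells, -3.29 and -3.61 in HuR cells, -1.86 on GFP 1 and -2.34 on GFP 2. CDH4, a classical cadherin, rose by 1.33 with GFP arrays at 0.76 and 0.03, at or above TIA1 cells. The nectins thus had GFP 2 on the HuR side (-5.82 and -5.33) and CLDN3 and CDH4 on the TIA1 side.

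Neuronal genes and potassium channels had among the larger shares of rises, at 28.8% and 30%, against 8.57% of all genes. Of 52 synaptic and neuronal genes 15 rose and 4 fell, with a median of 0.46, and 6 of the called ones are in the study's list. Of 50 tested potassium channel genes, out of 94 on the array, 15 rose and 4 fell, with a median of 0.22 that was 0.10 after quantile normalization and 0.02 in the authors' values, where 8 were higher and 2 lower. Only 10 of the 50 channels were brighter than the median gene, and 20.1% of mRNAs in the dimmest signal group were called higher. With all 4 arrays required well above background, 11 channels were higher and 4 lower, and 13 neuronal genes higher and 4 lower. KCNN4, a calcium-activated channel, rose by 2.34 on the log2 scale, with -3.11 and -2.91 against -5.18 and -5.51, and KCNH2, the hERG channel, by 1.73. NRXN2, a presynaptic adhesion protein, rose by 2.50, with GFP 1 at -1.80 and GFP 2 at -3.18 beside TIA1 arrays at -2.07 and -2.15 and HuR arrays at -4.58 and -4.65.

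Among cell cycle genes, whose levels follow the share of dividing cells, 3 of 58 DNA replication genes and 2 of 63 mitosis genes rose and none fell, shares of 5.17% and 3.17% that were under the 8.57% of all genes. TK1, the thymidine kinase of S phase, had 6.87 and 6.90 in TIA1 cells, 5.57 and 5.53 in HuR cells, 5.78 on GFP 1 and 6.30 on GFP 2 (log2 difference 1.33, SE 0.09, adjusted p = 0.0028). UBE2C, a ubiquitin-conjugating enzyme of mitotic exit, had 4.73 and 4.62 against 3.31 and 3.20, with GFP arrays at 3.90 and 4.29, and rose by 1.42. MCM8, a helicase, rose by 1.59 and CDC6, which licenses origins, by 1.37. The 2 lines did not overlap at any of these genes, but the genes were named because they were called, which largely fixes this. TOP2A (1.03) lost its call without HuR replicate 1 (0.98) or TIA1 replicate 1 (0.95), and the mitosis count was 4 without HuR replicate 2. The list medians, 0.20 and 0.32, were above the 0.09 of all genes.

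HOX genes, which encode positional transcription factors, had 4 of 35 higher (11.4%, against 8.57% of all genes) and none lower, with a median of 0.45. HOXB3 rose by 1.11 (0.53 and 0.43 against -0.61 and -0.66, GFP arrays -0.34 and -0.19), HOXD8 by 1.27 and HOXD1 by 1.53. Of 23 tested clustered protocadherins, of 48 on the array, 5 rose and none fell, with the highest median of any list, 0.70. Their exons share much sequence, the genes were dim, and quantile normalization left 2 calls and the authors' values 0.

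**Figure D3:**
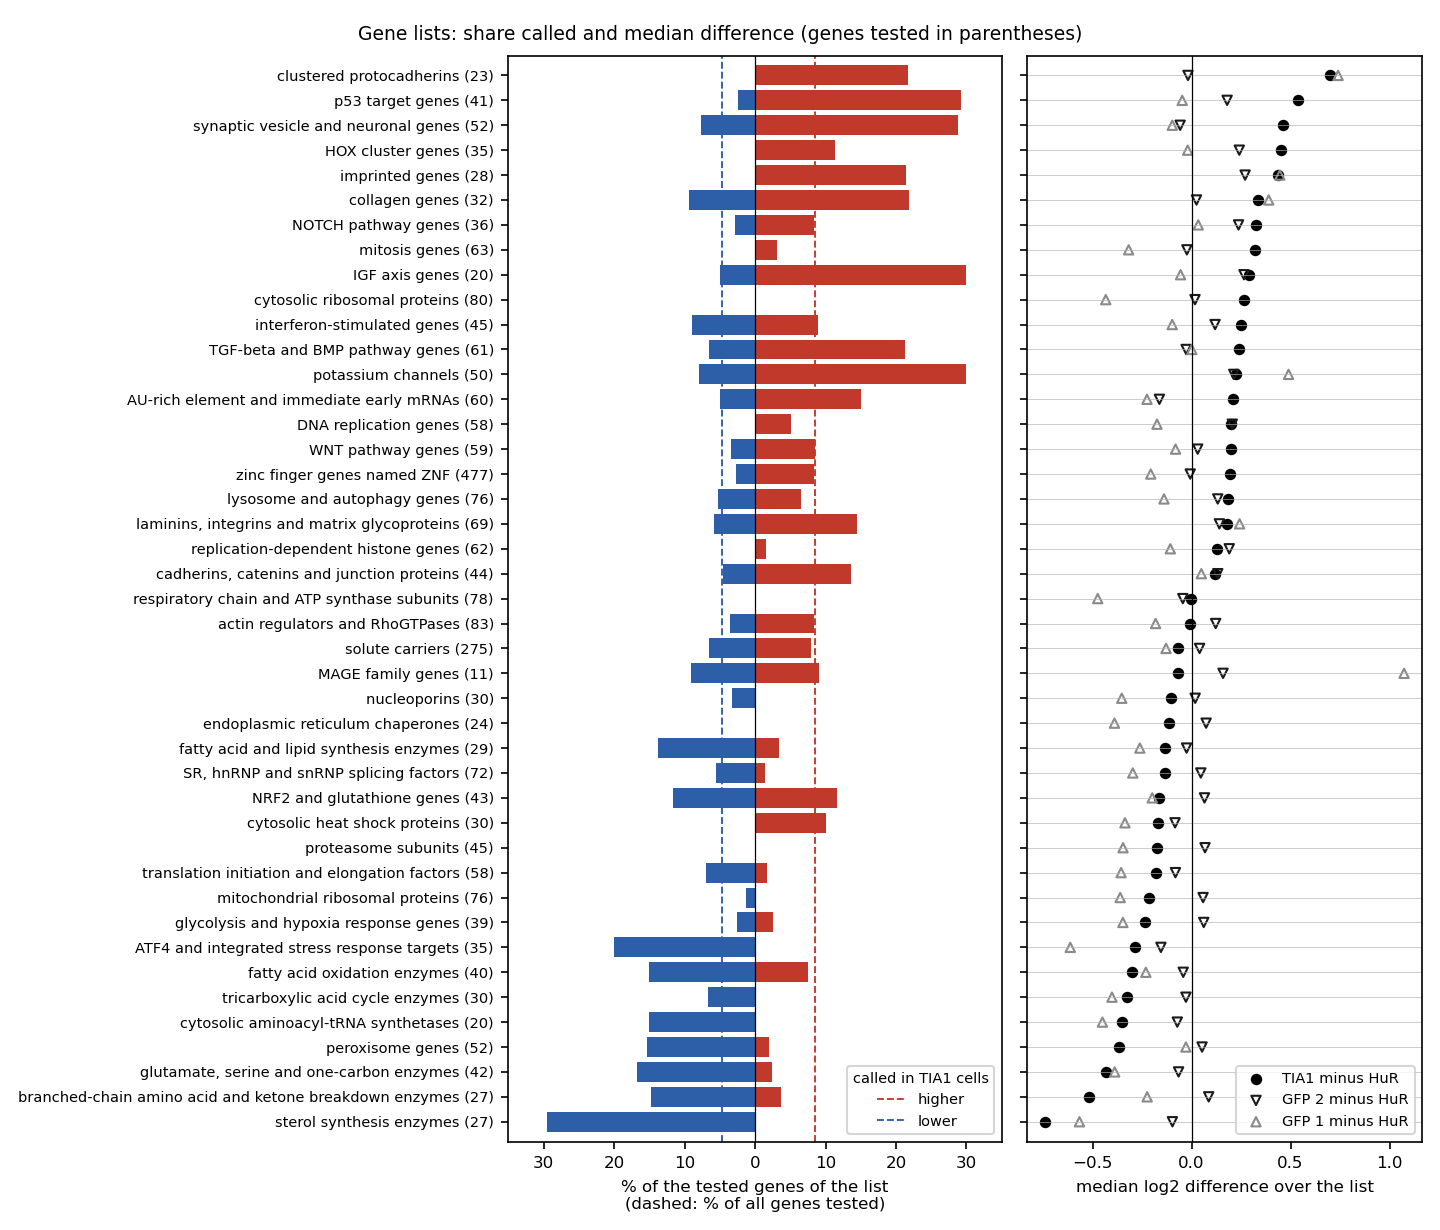
Left, the percentage of each list's tested genes called higher or lower in TIA1 cells, with dashed lines at the 8.57% and 4.67% of all genes; right, the list's median log2 difference for TIA1 minus HuR, GFP 2 minus HuR and GFP 1 minus HuR. Sterol synthesis lies at the bottom with a TIA1 median of -0.74, and the protocadherins at the top with 0.70.

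The GFP arrays were set beside every called gene to see which line they resembled. Of 1813 genes called higher that could be read on both GFP arrays, 661 (36.5%) had both nearer the HuR mean, 476 (26.3%) had both nearer the TIA1 mean and 676 (37.3%) were split. Of the 991 called lower, 567 (57.2%) had both nearer HuR cells, 145 (14.6%) both nearer TIA1 cells and 279 (28.2%) were split. By GFP 2 alone, 1196 of 1816 higher genes (65.9%) and 702 of 991 lower genes (70.8%) were nearer HuR cells. With quantile normalization of the 6 arrays, both arrays were nearer HuR cells at 54.3% of the higher and 37.3% of the lower genes, so the order of the 2 directions turned with the scaling. These shares are a description, since genes were chosen for how far TIA1 and HuR arrays lay apart.

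The lists differed in this. For the glutamate and serine list the median of GFP 2 minus HuR cells was -0.07 and for the peroxisome list 0.05, both near 0, against -0.43 and -0.37 for TIA1 minus HuR cells. GFP 1 minus HuR cells gave -0.39 and -0.03, so for the glutamate and serine list the 2 GFP arrays differed. Of the 7 genes of that list called lower, 4 had GFP 2 nearer TIA1 cells and 3 nearer HuR cells. The imprinted list stood at 0.27 for GFP 2 minus HuR cells and 0.45 for GFP 1 minus HuR cells, against its 0.44 for TIA1 minus HuR cells. For the IGF list GFP 2 minus HuR cells gave 0.26 and GFP 1 minus HuR cells -0.06, and of its 6 higher genes 4 had GFP 2 nearer HuR cells and 2 nearer TIA1 cells.

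**Figure D4:**
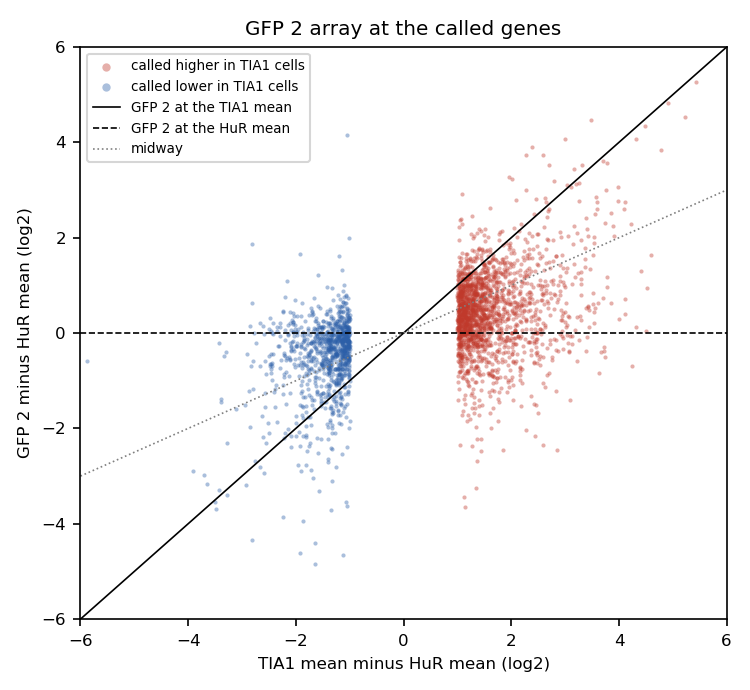
Each called gene by its TIA1 mean minus HuR mean (x axis, log2) and GFP 2 minus HuR mean (y axis, log2). A gene at 0 on the y axis has GFP 2 level with HuR cells and a gene on the diagonal has GFP 2 level with TIA1 cells, and 10 of 2809 called genes fall outside the axes.

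Called genes were not spread evenly over chromosomes. On chromosome 20, 111 of 552 tested genes (20.1%) were higher in TIA1 cells and 7 (1.27%) lower, and 85.9% of all its genes had a difference above 0, with a median of 0.51 on the log2 scale. The median was 0.50 over those of its genes brighter than the median gene, 0.43 after quantile normalization and 0.35 in the authors' values. On GFP 2 the chromosome 20 median was 0.52 relative to HuR cells, on GFP 1 it was 0.47, and TIA1 cells minus GFP 2 gave 0.05. The HuR arrays alone were thus low across this chromosome, and the GFP and TIA1 arrays were near each other by these medians.

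The shift ran along the whole of chromosome 20 and took in bright genes. MGME1 (as C20orf72), a mitochondrial exonuclease, had 3.45 and 3.49 in TIA1 cells, 2.18 and 2.17 in HuR cells, 3.24 on GFP 1 and 3.69 on GFP 2. BTBD3 had 2.27 and 2.06 against 0.73 and 0.70, with GFP arrays at 1.72 and 1.74, and EMILIN3, a matrix protein, -1.30 and -1.41 against -3.03 and -2.88, with -1.34 and -1.19. At each of the 3 the GFP arrays were with TIA1 cells, and the differences were 1.30, 1.45 and 1.60. FLRT3, an adhesion protein, rose by 2.05 but had GFP arrays at -2.85 and -2.91, nearer the HuR arrays at -3.45 and -3.23. MYT1, a neural transcription factor, rose by 3.16. GDAP1L1, MCM8, UBE2C and CDH4, described above, lie on chromosome 20 too.

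Other nuclear chromosomes showed smaller shifts. Of 12 mitochondrial genes 1 was called higher, and their median was 0.56, or 0.31 after quantile normalization and 0.32 in the authors' values, with GFP 2 minus HuR at 0.23 and GFP 1 minus HuR at -0.21. On chromosome 21, 54 of 268 genes (20.1%) were higher, with a median of 0.32, and GFP 2 minus HuR gave 0.27. On chromosome 19, 192 of 1386 (13.9%) were higher with a median of 0.24, but there GFP 2 minus HuR gave 0.05 and TIA1 minus GFP 2 gave 0.21. Chromosome 7 was like 19, with 11.4% higher, a median of 0.26 and GFP 2 minus HuR at 0.02. On chromosome 13 the median of 0.20 was matched by 0.26 for GFP 2 minus HuR. On chromosome 14 lower genes were the more common, 55 of 632 (8.7%) against 33 higher, with a median of -0.07.

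In windows of 10 Mb, with positions on hg19, which the array design uses, the highest median of the 306 windows with at least 10 genes was on chromosome 21 from 10 to 20 Mb, where 12 of 32 genes rose, 2 fell and the median was 0.63. There it was 0.41 after quantile normalization and 0.21 in the authors' values, with 5 genes higher, below the 0.55 and 0.50 of chromosome 20 from 60 to 70 Mb. RBM11, an RNA-binding protein, rose there by 1.30 and C21orf91 by 1.64. On chromosome 17 from 30 to 40 Mb, 40 of 165 genes rose and 2 fell, with a median of 0.47 and GFP 2 minus HuR at 0.50. On chromosome 7 from 70 to 80 Mb, 21 of 96 rose, with a median of 0.52, GFP 2 minus HuR at 0.13 and TIA1 minus GFP 2 at 0.49. By their medians GFP 2 was thus level with TIA1 cells in the chromosome 17 window and near HuR cells in the chromosome 7 window. The copy number of these segments in each line was not measured here, and its part in the expression differences was not tested.

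**Figure D5:**
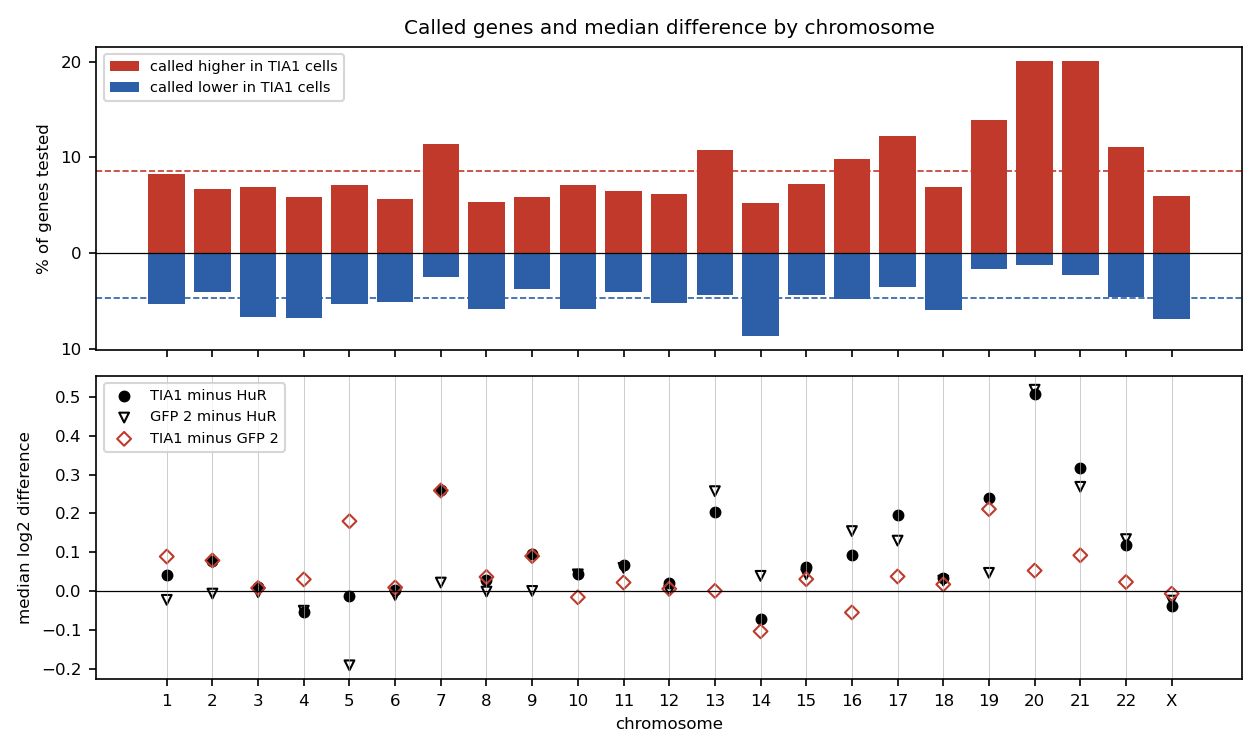
Upper panel, the percentage of tested genes on each chromosome called higher (up) or lower (down) in TIA1 cells, with dashed lines at the shares of all genes; lower panel, the median log2 difference per chromosome for TIA1 minus HuR, GFP 2 minus HuR and TIA1 minus GFP 2. Chromosomes 20 and 21 stand out with 20.1% higher each, and on chromosome 20 GFP 2 minus HuR (0.52) lies beside TIA1 minus HuR (0.51).

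Long non-coding RNAs and transcribed pseudogenes were called too. Of 1461 RefSeq non-coding RNAs 9.58% were higher and 6.5% lower, against 7.93% and 4.73% of 14156 mRNAs. The classes differ in signal: 487 of the non-coding RNAs and 8929 of the mRNAs were brighter than the median gene, and dim genes were called more often. In the authors' values 60 non-coding RNAs were higher and 38 lower, against 540 and 437 mRNAs. MIR7-3HG, the host RNA of a copy of miR-7, had 0.69 and 0.83 in TIA1 cells, -2.75 and -2.52 in HuR cells, -1.94 on GFP 1 and -2.11 on GFP 2, with both of its probes near 3.40 on the log2 scale. OLMALINC (as LINC00263), a long non-coding RNA, had -2.20 and -2.22 against 0.64 and 0.61, with GFP arrays at -0.62 and -0.07, a fall of 7.15-fold. FER1L4, a transcribed pseudogene on chromosome 20, rose by 2.61 and LINC01554 (as C5orf27) by 2.83. Several RNAs named here are also in the study's list, these 4, FAM86FP and GK3P among them. FAM86FP (-2.30), ZNF876P (-2.09) and GK3P (-2.06) fell, and as copies of other genes their signals may be shared with those. SNORD1B (-2.06) lost its call without HuR replicate 1 (-1.998) or HuR replicate 2 (-2.13).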

How the data were processed

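Single-colour Agilent human arrays of the TIA1, HuR and GFP lines were used, all on 1 slide. The authors deposited scanner files (Agilent Feature Extraction 10.7.3.1) in which each spot has a processed intensity, with the background subtracted. They also deposited a table of log2 values in which 6 arrays share 1 distribution and the TIAR arrays another, as quantile normalization leaves them; limma is named in the submitters' processing notes, its version not given in the sources used here. The table served as an alternative, and no columns of other samples were used. Log2 intensity minus the array's 75th percentile over non-control probes was computed, outlier spots were left out, spots of a probe were averaged, and probes were kept if TIA1 cells or HuR cells had both arrays well above background. limma 3.58.1 (R 4.3.3, data.table version 1.17.8) was fitted to the 4 arrays without a block, with Benjamini-Hochberg adjustment over all 28713 probes, and was tested on simulated data. Calls needed a fold of 2 and an adjusted p under 0.05, and a gene took its probe of highest mean signal. Figures and summaries were made with Python 3.11.15, pandas 2.3.3, scipy 1.17.1 and matplotlib 3.10.9. The number of arrays limits the precision.

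Members and lists were chosen with earlier results of these data known. Genes named were the 12 mRNAs of largest change in each direction outside the study's list, the 5 with the largest bounds, up to 4 called members per list outside that list, the 5 non-coding RNAs of largest change in each direction, TIA1, TIAL1 and ELAVL1, and up to 4 genes of the windows of largest median. Other list members, some of the sterol and ATF4 lists among them, were named after their values were seen, as were the windows on chromosomes 17 and 7. Some genes that the rule names are not reported here. Of 2809 called genes, 2065 matched RefSeq by name and 308 are in the study's list. Alternatives were normexp (offset 50), quantile normalization, the authors' values, no filter, a filter on all 4 arrays, all 8 arrays in 1 fit, a replicate block, leaving out each array, and the methods' t-test.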

Additional observations from a re-analysis of the deposited data

How the results depend on the processing

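The 1818 higher and 991 lower calls became 1173 and 510 with normexp background correction, 760 and 543 in the authors' normalized values, and 971 and 505 with the methods' t-test (paired) at an unadjusted p under 0.05, with 0 and 0 after Benjamini-Hochberg. They were 1442 and 1257 after quantile normalization, and 1832 and 807 with no filter. Leaving out 1 array gave 1458 to 1904 higher and 701 to 1215 lower calls, and 14.3% to 15.2% of probes differing at least 2-fold. That share was 7.72% with normexp, 5.97% in the authors' values and 11.6% with the filter on all 4 arrays. Both GFP arrays were nearer HuR cells at 43.8% of all called genes, against 67.6% by GFP 2 alone, 48.3% after quantile normalization and 48.9% in the authors' values. The share of chromosome 20 genes called higher was 15.8% after quantile normalization and 11.8% in the authors' values. The cause of these moves was not tested. With normexp the differences of ACOT4 (0.10), GDF7 (0.0575), MAGEB6 (0.14) and TNFRSF10C (0.0721), all not well above background in TIA1 cells, turned positive. Of 190 named genes, 49 lost a call in at least 1 fit that left out an array, 87 lost it with the methods' t-test, 65 in the authors' values, 43 with normexp, the 4 that turned sign included, and 8 after quantile normalization.

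With the replicate block 1822 genes were higher and 1006 lower, and it changed none of the 190 named-gene calls and none of the 86 list counts by over 1.5 times. Same-numbered TIA1 and HuR arrays share only a number: the correlation of their differences across probes was 0.0637.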

Other observations

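The remaining lists are given as counts of higher and lower calls and the median log2 difference of TIA1 minus HuR cells. Over all genes 8.57% were called higher and 4.67% lower. The ZNF, solute carrier, WNT, NOTCH and actin lists were near the first share, at 8.39%, 8%, 8.47%, 8.33% and 8.43%. Their lower shares were 2.73%, 6.55%, 3.39%, 2.78% and 3.61%. Zinc finger genes named ZNF had 40 and 13 of 477 called, with a median of 0.20, and 25 and 15 after quantile normalization and 12 and 9 in the authors' values, where the median was 0.11. ZNF454 was at least 4.62-fold higher in TIA1 cells, its HuR arrays being not well above background. Solute carriers had 22 and 18 of 275 (median -0.07), and the higher count was 13 without HuR replicate 2 and the lower count 10 without HuR replicate 1. The counts were 18 and 25 after quantile normalization and 7 and 13 in the authors' values. SLC9B1, a sodium/proton exchanger, was at least 2.78-fold higher, and SLC8A2, a sodium/calcium exchanger, rose by 2.54.

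Genes of signalling pathways were called in both directions. WNT pathway genes had 5 and 2 of 59 (median 0.20), with WNT16 at 2.34 and 4 lower calls without TIA1 replicate 2. NOTCH pathway genes had 3 and 1 of 36 (median 0.32), with HES2 at 1.36, PSEN2, of the gamma-secretase, at -1.21 and 2 lower calls without TIA1 replicate 1. JAG1, a NOTCH ligand, had 1.18 but was not called without HuR replicate 1 (0.88) or TIA1 replicate 2 (1.06). Interferon-stimulated genes had 4 and 4 of 45 (median 0.25), with DHX58 at 1.51, and 1 lower call without HuR replicate 2 or TIA1 replicate 1. In the authors' values 2 of them were higher and 0 lower, with a median of 0.045.

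Stress and turnover lists were mixed. NRF2 and glutathione genes had 5 and 5 of 43 (median -0.17), with AKR1B10 at 1.88, GSTM2 at least 2.68-fold higher and HMOX1, the inducible heme oxygenase, at -1.40. Lysosome and autophagy genes had 5 and 4 of 76 (median 0.18), with ATG10 at -1.63 and CTSH, a cathepsin, at -1.40. Cytosolic heat shock proteins had 3 and 0 of 30 (median -0.17), with HSPA13 at 1.27. Glycolysis and hypoxia genes had 1 and 1 of 39 (median -0.23), HK2, a hexokinase, at -1.18 and ALDOC, an aldolase, at 1.10. Fatty acid and lipid synthesis genes had 1 and 4 of 29 (median -0.13); FADS2, a desaturase, was at -1.20 and at 1.61 at another probe.

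Actin regulators and RhoGTPases had 7 and 3 of 83 (median -0.01, 0.05 in the authors' values), with CNN2 at 1.24 and CFL2, a cofilin, at -1.32, and RAC2, called at 1.98, had another probe at -0.04. Splicing factors had 1 and 4 of 72 (median -0.14), with NOVA1, a neuronal splicing regulator, at -1.34, and no higher call without HuR replicate 1 or HuR replicate 2, when PTBP2 (1.21) was not called. Nucleoporins had 0 and 1 of 30 (median -0.11), mitochondrial ribosomal proteins 0 and 1 of 76 (-0.22), replication-dependent histone genes 1 and 0 of 62 (0.13) and MAGE genes 1 and 1 of 11 (-0.07). The nucleoporin, NUP210 (-1.39), was not called without HuR replicate 1 or HuR replicate 2, the ribosomal protein, MRPL24 (-1.03), was not called without HuR replicate 1 or TIA1 replicate 1, and the histone, HIST2H2AA4 (1.03), not without HuR replicate 1, HuR replicate 2 or TIA1 replicate 2.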
